A study of Homo sapiens with 6 samples.

Results

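The BCL2 family decides, at the mitochondrial outer membrane, whether a cell survives or dies by apoptosis. Followed here were 10 of its best known genes, BCL2, BCL2L1, MCL1, BAX, BAK1, BID, BBC3, PMAIP1, BCL2L11 and BIK. They were chosen by name for their role, and they are 10 of the 18750 genes with at least 1 transcript in the count table. All 10 had counts in each of the 6 libraries and passed the filter on low counts. HCT116, a long-established colorectal cancer cell line of human origin, had been transfected either with an siRNA against the long noncoding RNA AC010789.1 (si-AC010789.1, 3 libraries) or with a control siRNA that should target nothing (siRNA-NC, 3 libraries). Both groups were thus transfected cells of the same line, and the labels name no further treatment and no time after transfection. The paper selected a single siRNA for its further work, so effects through its target and effects of its sequence on other RNAs cannot be told apart. The labels do not say which siRNA was used. Nor do they say whether the libraries of a group came from separate cultures. The paper calls them biological repeats and names cells of differing passage as a possible source of their spread, so p-values measure the spread between these libraries, whatever its source.

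Paired-end RNA-seq libraries held between 11277222 and 13443866 counts in transcripts, and 3 counts corresponded to between 0.223 and 0.266 CPM, the unit of level used here, which scales counts to a common library size. The level of AC010789.1 itself was not analysed here, so the labels of the 2 groups were not checked against the targeted RNA. The paper reports that it verified the knockdown in its samples for RNA sequencing. Among 7 markers of colorectal epithelium, KRT8 lay between 444 and 850 CPM and KRT18 between 351 and 535 CPM, while EPCAM reached only 3.1 to 5.59 CPM and CDH17 had 0 to 2 counts. KRT19, CDX2 and VIL1 were not analysed here. Summed over the 4 epithelial markers with a row, the level ranged from 985 to 1230 CPM in siRNA-NC and from 801 to 1040 CPM in si-AC010789.1. Of the markers of other cells, COL1A1 lay between 37.8 and 48.0 CPM, and the others are not reported here. The part of either set of markers in the results below was not tested.

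As background, pro-survival members such as BCL2, BCL-XL (the long product of BCL2L1) and MCL1 hold the effectors BAX and BAK in check. BH3-only proteins, made in response to stress or cut by caspases, bind the pro-survival members or the effectors themselves. Once released, BAX and BAK form pores, cytochrome c leaves the mitochondrion, and the apoptosome switches on caspase-9. Several family genes make opposed or unequal products by splicing, and much of the control of the family lies in protein binding and degradation, which RNA counts do not measure.

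For 4 members, the place where a pair of coding transcripts parts ways is shown. There the coding sequences of the products begin to differ, and this is what counts of single transcripts have to tell apart. The pair is not always the one with the most counts. Each line holds the last 15 coding bases that both transcripts share, in lower case, and the first 15 bases of the transcript's own course, in capitals, 5′ to 3′ in the sense of the gene, from GENCODE v29 on GRCh38. For BCL2L1, on the minus strand of chromosome 20, the shared stretch ends at 31721844. The transcript of the long, pro-survival BCL-XL (233 residues) reads on in the same exon at 31721843, and that of the short, pro-apoptotic BCL-XS (170 residues) jumps to 31666086.
BCL2L1-203: cagagctttgaacagGTAGTGAATGAACTC
BCL2L1-202: cagagctttgaacagGATACTTTTGTGGAA
For MCL1, on the minus strand of chromosome 1, the shared stretch ends at 150578843. The full-length product (350 residues) goes on at 150578491, and the shorter product (271 residues) skips that exon and goes on at 150577491.
MCL1-202: agacggccttccaagGCATGCTTCGGAAAC
MCL1-201: agacggccttccaagGATGGGTTTGTGGAG
For BAX, on the plus strand of chromosome 19, the shared stretch ends at 48960914. BAX alpha (192 residues) goes on in the last exon at 48961532, and the 218-residue product reads through into the intron at 48960915.
BAX-202: gaccagggtggttggGACGGCCTCCTCTCC
BAX-201: gaccagggtggttggGTGAGACTCCTCAAG
For BCL2L11, on the plus strand of chromosome 2, the shared stretch ends at 111124139. The transcript of BIM-EL, the 198-residue extra-long product, goes on at 111150044, and the 135-residue product skips to 111164133.
BCL2L11-206: atctcagtgcaatggCTTCCATGAGGCAGG
BCL2L11-223: atctcagtgcaatggGTATTTTTGAATAAT

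The study also asked about miR-432-3p, a microRNA, so the members' 3′ UTRs were searched for its seed. The mature sequence in RefSeq (GRCh38.p14, chr14:100884544-100884564, plus strand) is shown with the seed, bases 2 to 8, in capitals, and below it the 1 match found among the members, in the 3′ UTR of BCL2L1 at chr20:31665931-31665937 (GRCh38, minus strand), with the matching letters in capitals.
hsa-miR-432-3p: cUGGAUGGcuccuccaugucu
BCL2L1 site: cagacactgaCCATCCActctaccctc
The letters searched were CCATCCA and CATCCAA, which overlap by 6 bases, on the strand of the transcript alone. Of the 10 members, whose longest annotated 3′ UTRs ran from 407 bases in BIK to 5279 bases in BCL2, only BCL2L1 held one, against 2366 of the 12317 tested genes with an annotated 3′ UTR (19.2%). The match lies in the transcripts of BCL-XL and of BCL-XS alike. It is a match of letters and no measured site.

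At the level of whole genes, no difference of a member between si-AC010789.1 and siRNA-NC passed the test. With edgeR's quasi-likelihood test and Benjamini-Hochberg adjustment over the 13750 genes tested, 0 of 10 members had an adjusted p-value under 0.05, against 0.982% of all genes tested (135 genes, of which 39 were higher after the knockdown and 96 lower). That number of genes depended on the setting, with 12 to 37 genes when 1 library was left out and 559 genes with DESeq2. At an unadjusted p-value under 0.05, edgeR gave 1 of 10 members (BAX), against 17.2% of all genes. DESeq2 called 0 members after adjustment and gave 1 at an unadjusted p-value under 0.05, and it gave no adjusted p-value for BBC3, BCL2 and BIK. The share of all genes at that unadjusted DESeq2 threshold is not reported here. By the study's criteria, an unadjusted p-value under 0.05 with an absolute log2 fold change over 1, 0 of 10 members passed, against 0.778% of all genes. The 6 libraries separated without overlap in 2 of 10 members, BAX and PMAIP1, against 25.1% of all genes. The log2 fold change, si-AC010789.1 over siRNA-NC, was above 0 for 8 members and below 0 for 2, BAX and BAK1. Over all genes tested it was above 0 for 6860 and below 0 for 6890. The median was 0.12 over the members against -0.001 over all genes tested. With 1 library left out, the sign reversed in some fits for BCL2, MCL1, BBC3 and BCL2L11.

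**Figure D1:**
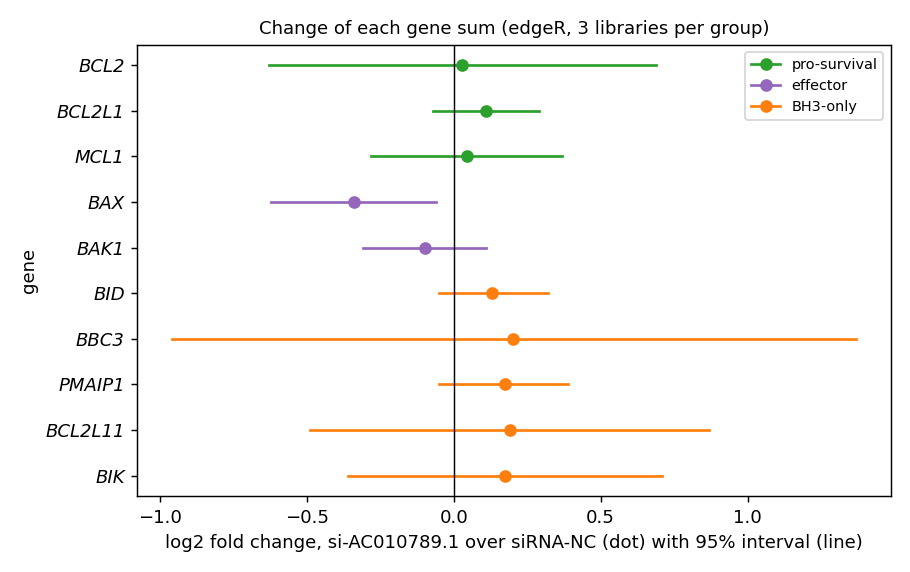
Log2 fold change of each gene sum, si-AC010789.1 over siRNA-NC (horizontal axis; dot), with its approximate 95% interval from the edgeR fit (line), n = 3 libraries per group, coloured by role. The interval of BAX, -0.62 to -0.06, is the one that leaves out 0 before adjustment over all genes, and that of BBC3, -0.96 to 1.37, is the widest.

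Among the pro-survival genes, BCL2L1 (ENSG00000171552.12, chr20:31664452-31723989) was measured most tightly. Its level was 93.6, 86.6 and 99.4 CPM in siRNA-NC against 108, 96.3 and 98.0 CPM in si-AC010789.1. The groups overlapped, with the highest library in si-AC010789.1 and the lowest in siRNA-NC. The means were 93.2 ± 6.39 and 101 ± 6.11 CPM (SD, n = 3 each), a log2 fold change of 0.11 with a 95% interval from -0.07 to 0.29 (edgeR adjusted p = 0.504).

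MCL1 (ENSG00000143384.12, chr1:150574551-150579738), whose protein is short-lived and replaced by steady synthesis, had 146, 142 and 184 CPM in siRNA-NC against 171, 138 and 178 CPM in si-AC010789.1. Each group held 1 or 2 high libraries and a lowest one close to that of the other group. Its log2 fold change was 0.04 (95% interval -0.28 to 0.37, edgeR adjusted p = 0.905). It was below 0 without siRNA-NC replicate 1 (-0.004), without siRNA-NC replicate 2 (-0.028) or without si-AC010789.1 replicate 3 (-0.031).

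BCL2 (ENSG00000171791.12, chr18:63123346-63320128), the founding member, had 52 to 89 counts per library. The level was 5.58, 5.66 and 4.65 CPM in siRNA-NC against 7.77, 4.23 and 4.21 CPM in si-AC010789.1, so the si-AC010789.1 libraries lay on both sides of all siRNA-NC libraries. This gave a log2 fold change of 0.03 (95% interval -0.63 to 0.69, edgeR adjusted p = 0.972). Leaving out the high library, si-AC010789.1 replicate 1, turned it to -0.326, and leaving out siRNA-NC replicate 3 turned it to -0.061.

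Of the effectors, BAX (ENSG00000087088.19, chr19:48954815-48961798), which moves from the cytosol to the mitochondrion when activated, stood lower in si-AC010789.1. Its level was 25.4, 26.6 and 29.5 CPM in siRNA-NC against 21.1, 19.0 and 24.5 CPM in si-AC010789.1. Every si-AC010789.1 library was below every siRNA-NC library, and the nearest libraries of the groups differed by less than the spread within either group. The means were 27.2 ± 2.08 and 21.5 ± 2.75 CPM (SD, n = 3 each), a log2 fold change of -0.34 with a standard error of 0.118 and a 95% interval from -0.62 to -0.06. The edgeR p-value was 0.0259 before and 0.227 after adjustment, so the difference did not pass. The exact two-sided permutation test gave p = 0.1, the smallest value that 3 against 3 libraries allow. With any 1 library left out the log2 fold change stayed between -0.442 and -0.254.

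BAK1 (ENSG00000030110.12, chr6:33572547-33580293), whose protein BAK sits in the outer membrane at all times, had 28.2, 26.7 and 30.8 CPM in siRNA-NC against 27.8, 25.3 and 27.0 CPM in si-AC010789.1. The groups overlapped, with a log2 fold change of -0.10 (95% interval -0.31 to 0.11, edgeR adjusted p = 0.621). The pseudogene BAK1P1 had 128 counts over the 6 libraries, and how reads shared with BAK1 were divided is not given in the sources used here, which leaves the level of BAK1 uncertain.

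Among the BH3-only genes, BID (ENSG00000015475.18, chr22:17734138-17774770), whose protein is cut by caspase-8 and links death receptors to the mitochondrion, had 31.6, 33.2 and 35.8 CPM in siRNA-NC against 37.5, 37.2 and 35.5 CPM in si-AC010789.1. The highest siRNA-NC library exceeded the lowest si-AC010789.1 library by a narrow margin, so the groups overlapped. Its log2 fold change was 0.13 (95% interval -0.05 to 0.32, edgeR adjusted p = 0.443).

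PMAIP1 (ENSG00000141682.11, chr18:59899948-59904306) makes NOXA, a BH3-only protein that binds MCL1. Its level was 20.6, 23.0 and 21.4 CPM in siRNA-NC against 26.5, 23.6 and 23.2 CPM in si-AC010789.1. The groups did not overlap, but the lowest si-AC010789.1 library was only slightly above the highest siRNA-NC library. A log2 fold change of 0.17 (95% interval -0.05 to 0.39) came with an edgeR p-value of 0.102 before and 0.391 after adjustment, and the exact permutation p was 0.1.

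BCL2L11 (ENSG00000153094.22, chr2:111119378-111168447) makes BIM, which binds all pro-survival members and the effectors. Its level was steady in siRNA-NC, at 30.5, 32.2 and 32.7 CPM, and scattered in si-AC010789.1, at 47.7, 20.6 and 40.6 CPM. In si-AC010789.1, replicate 2 lay below and replicates 1 and 3 lay above all siRNA-NC libraries. The means were 31.8 ± 1.16 and 36.3 ± 14.0 CPM (SD, n = 3 each), with a log2 fold change of 0.19 (95% interval -0.49 to 0.87, edgeR adjusted p = 0.785). Leaving out si-AC010789.1 replicate 1 turned the value to -0.055, and leaving out replicate 2 of that group raised it to 0.476.

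BBC3 (ENSG00000105327.17, chr19:47220822-47232766), the gene of the BH3-only protein PUMA, had 7.09, 2.64 and 2.33 CPM in siRNA-NC against 5.15, 5.67 and 2.92 CPM in si-AC010789.1. A single siRNA-NC library, replicate 1, was the highest of the 6 and the other two of that group were the lowest. The log2 fold change of 0.20 had a 95% interval from -0.96 to 1.37 (edgeR adjusted p = 0.871). It ranged from -0.077 without siRNA-NC replicate 3 to 0.882 without siRNA-NC replicate 1, with -0.028 when replicate 2 of that group was left out. Most BBC3 counts lay in the retained-intron transcripts BBC3-205 (35, 26 and 17 counts in siRNA-NC against 27, 26 and 23 in si-AC010789.1) and BBC3-206 (35, 4 and 7 counts, then 30, 41 and 11). The coding transcripts BBC3-203 and BBC3-204 had at most 10 counts in any library. How reads shared with the retained-intron transcripts were divided is not given in the sources used here, so the level of the PUMA coding message remains uncertain.

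BIK (ENSG00000100290.2, chr22:43110748-43129712), whose protein works largely at the endoplasmic reticulum, had 16 to 27 counts per library. It had 1.42, 1.89 and 2.03 CPM in siRNA-NC against 2.1, 2.0 and 1.94 CPM in si-AC010789.1, and the groups overlapped. Its log2 fold change was 0.17 (95% interval -0.36 to 0.71, edgeR adjusted p = 0.77).

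**Figure D2:**
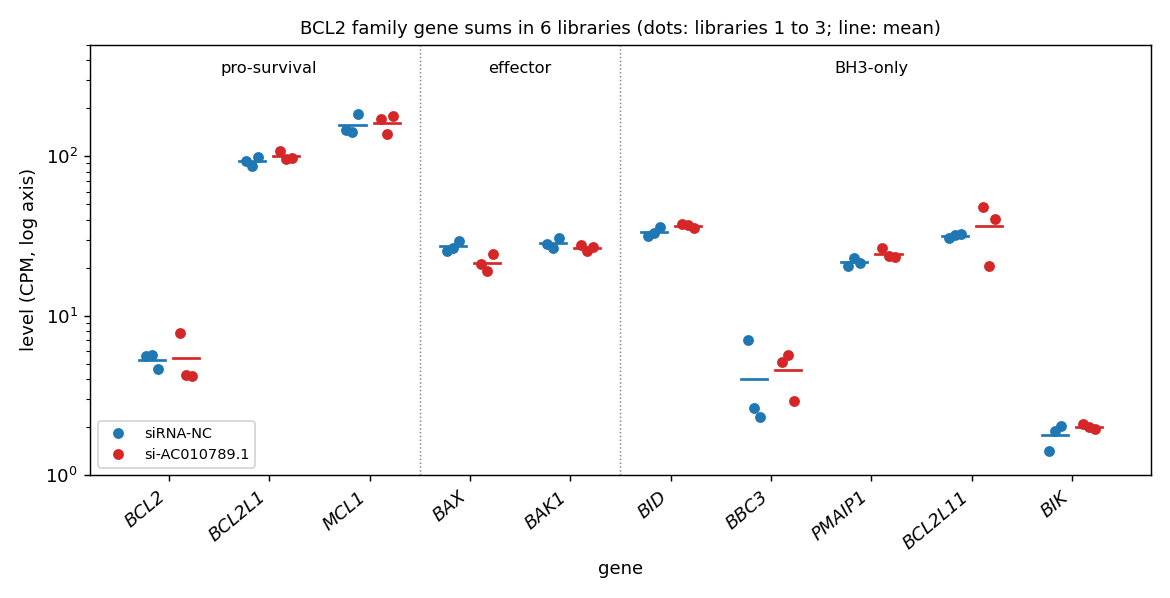
Level of each gene sum in CPM (vertical log axis) in the 3 siRNA-NC libraries (blue) and the 3 si-AC010789.1 libraries (red), with a line at each group's mean and genes ordered by role. BAX and PMAIP1 are the genes whose groups do not overlap, and the si-AC010789.1 libraries of BCL2L11 spread from 20.6 to 47.7 CPM around siRNA-NC libraries at 30.5 to 32.7 CPM.

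The spread between libraries of one group was ordinary for most members. Taking for each gene the larger of the 2 groups' ranges on the log2(CPM + 1) scale, the median over the members was 0.34 (0.17 to 1.28), against 0.32 over all genes tested. BCL2L11 and BBC3 exceeded a 2-fold range within a group, 2 of 10 members, against 7.79% of all genes.

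Levels of different genes were compared only per length, as CPM per kilobase of transcript. BCL2L1 (44.3 to 54.0 over the 6 libraries) and MCL1 (39.7 to 54.0) led, and their ranges overlapped. BAX followed at 24.2 to 35.8 and BID at 16.8 to 22.8, each apart from its neighbours. BAK1 (11.9 to 14.4), PMAIP1 (10.9 to 13.9) and BCL2L11 (8.74 to 14.8) formed a run of overlapping neighbours. Clear of these lay BBC3 (2.0 to 5.7), BIK (1.49 to 2.2) and BCL2 (0.591 to 1.56), each overlapping the next. Measured with the longest annotated transcript as the length, 8 of 10 members kept their rank, and BCL2L1 and MCL1 changed places.

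The balance of roles was read from the same per-length levels, as a description. Every transcript of a gene was counted under the role of the gene. The pro-survival share thus includes BCL-XS and the exon-skipped MCL1 form, and the BH3-only share includes retained-intron transcripts of BBC3. The effector share, and each BAX level and ratio below, includes retained-intron transcripts of BAX and others annotated for decay. Short ones weigh more per length. BAX-212, of 300 bases and annotated for decay, had 5, 9 and 26 counts in siRNA-NC against 10, 18 and 13 in si-AC010789.1. The pro-survival genes made up 51.3 ± 0.899% of the members' sum in siRNA-NC (SD, n = 3) against 52.6 ± 2.63% in si-AC010789.1. For the effectors the values were 24.5 ± 0.273% and 21.0 ± 2.49%, and for the BH3-only genes 24.2 ± 1.15% and 26.4 ± 2.54%. The per-length ratio of BAX to BCL2L1 was 0.662, 0.657 and 0.67 in siRNA-NC against 0.456, 0.618 and 0.524 in si-AC010789.1. All si-AC010789.1 libraries lay below the siRNA-NC libraries in this ratio, which uses the BAX counts already described. Per length the BAX level itself overlapped, at 29.3, 29.8 and 35.8 in siRNA-NC against 24.2, 29.9 and 28.3 in si-AC010789.1. In the ratio of BAX to BAK1 the groups overlapped too, at 2.22, 2.39 and 2.48 in siRNA-NC against 1.88, 2.52 and 2.25 in si-AC010789.1. The ratio of BAX to BCL2 overlapped, at 23.3, 21.8 and 44.1 in siRNA-NC against 15.5, 49.3 and 47.9 in si-AC010789.1. The ratio of PMAIP1 to MCL1 overlapped as well, at 0.256, 0.291 and 0.217 and at 0.277, 0.311 and 0.232.

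Single transcripts were far less steady than gene sums. The members had 66 transcripts in the table, of which 34 passed the filter on low counts. With edgeR, 0 of these 34 had an adjusted p-value under 0.05, against 0.0135% of the 44281 transcripts tested. DESeq2 called 0 as well, but it gave 11 of the member transcripts no adjusted p-value. It had 2 at an unadjusted p-value under 0.05, and the share of all transcripts at that threshold is not reported here. Of the 34, 1 had an edgeR p-value under 0.05 before adjustment together with groups that did not overlap, against 5.26% of all transcripts, and the same 1 met the study's criteria, against 3.5%. Transcripts with the same coding sequence were also summed into coding products, a level at which noncoding transcripts stayed as features of their own. Among the 31 member features tested there were noncoding ones, such as BBC3-205, BBC3-206, BAX-207 and MCL1-203. Of the 31, 0 passed in edgeR, against 0.0121% of all features at this level. At an unadjusted p-value under 0.05 edgeR gave 1, and DESeq2 gave 0 after and 1 before adjustment. Shares over all features for these unadjusted counts are not reported here. The within-group range exceeded 2-fold in 17 of the 34 transcripts, against 49.6% of all transcripts.

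BCL2L1 showed this most plainly. BCL2L1-203 had 737, 651 and 57 counts in siRNA-NC against 729, 607 and 145 counts in si-AC010789.1. BCL2L1-201 had 107, 26 and 934 counts, then 181, 317 and 744. In each group replicate 3 was the library in which BCL2L1-203 was low and BCL2L1-201 high. Both transcripts encode BCL-XL, and their sum was far steadier, at 844, 677 and 991 counts in siRNA-NC against 910, 924 and 889 in si-AC010789.1. That sum made up 71.2 ± 10.9% of the gene in siRNA-NC against 74.7 ± 1.75% in si-AC010789.1 (SD, n = 3 each). BCL2L1-202, the BCL-XS transcript, had 57, 195 and 14 counts in siRNA-NC against 76, 44 and 22 in si-AC010789.1, which is 7.81 ± 8.23% and 3.88 ± 2.18% of the gene. The high library was siRNA-NC replicate 2, and the groups overlapped.

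BCL2L11 held the 1 transcript that met the study's criteria. BCL2L11-206 (ENST00000393256), the BIM-EL transcript, had 79, 132 and 90 counts in siRNA-NC against 22, 51 and 10 counts in si-AC010789.1. Every si-AC010789.1 library was below every siRNA-NC library. The log2 fold change was -1.81, with an edgeR p-value of 0.0299 before and 0.818 after adjustment, so it did not pass among all transcripts, and it stayed between -2.539 and -1.409 with 1 library left out. The transcript made up 24.8 ± 5.39% of the gene's counts in siRNA-NC against 8.6 ± 9.73% in si-AC010789.1. BCL2L11-223, of 135 residues, had 87, 127 and 103 counts in siRNA-NC against 314, 41 and 271 in si-AC010789.1, with a log2 fold change of 1.06 (edgeR adjusted p = 0.957) that lay between 0.583 without si-AC010789.1 replicate 1 and 1.552 without si-AC010789.1 replicate 2. It was high in the 2 si-AC010789.1 libraries where BCL2L11-206 was lowest and low in replicate 2. BCL2L11-221, of 169 residues, had 51, 74 and 122 counts, then 103, 63 and 118, with a log2 fold change of 0.28 (edgeR adjusted p = 0.994) that lay between 0.075 without siRNA-NC replicate 1 and 0.626 without siRNA-NC replicate 3.

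In BAX, the 218-residue BAX-201 had 106, 168 and 174 counts in siRNA-NC against 110, 7 and 150 in si-AC010789.1, so a single library, si-AC010789.1 replicate 2, was low by more than 10-fold against the rest of its group. BAX-202, the BAX alpha transcript, had 119, 115 and 112 counts in siRNA-NC against 66, 124 and 83 in si-AC010789.1. Within si-AC010789.1 its highest value was in the library where BAX-201 was lowest. The gene sum in that library, 19.0 CPM, was also the lowest of the 6.

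Other members rested on 1 leading product. MCL1-202, the full-length form, had 1544, 1722 and 2312 counts in siRNA-NC against 1804, 1604 and 1992 in si-AC010789.1, or 93.1 ± 1.28% and 91.9 ± 1.39% of the gene. MCL1-203, the next in mean count, had 63, 65 and 74 counts, then 42, 70 and 80, and the exon-skipped MCL1-201 had 28, 57 and 21, then 77, 19 and 82. BAK1-202, the 211-residue BAK, had 276, 347 and 380 counts, then 264, 316 and 286, while BAK1-203 had 6, 7 and 31, then 54, 1 and 14.

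PMAIP1-202, the 54-residue NOXA, had 227, 296 and 281 counts in siRNA-NC against 298, 288 and 270 in si-AC010789.1, and PMAIP1-203 had 5, 7 and 4, then 5, 1 and 8. BID-203, annotated with a 99-residue product, had 219, 300 and 334 counts, then 290, 322 and 278. BID-215, which encodes the full 195-residue BID, had 69, 85 and 51, then 32, 49 and 109. The 99-residue product summed to 75.9 ± 1.45% of BID counts in siRNA-NC against 73.1 ± 0.649% in si-AC010789.1. BCL2-202 and BCL2-201, both of 239 residues, had 16, 41 and 46 counts, then 43, 49 and 47, and 24, 11 and 13 counts, then 26, 2 and 0. BIK-201 was the only transcript of BIK in the table. In these genes the values of the 2 groups overlapped on the CPM scale for each transcript named, except BCL2-202, which was higher in every si-AC010789.1 library and had an edgeR p-value of 0.264 before adjustment.

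**Figure D3:**
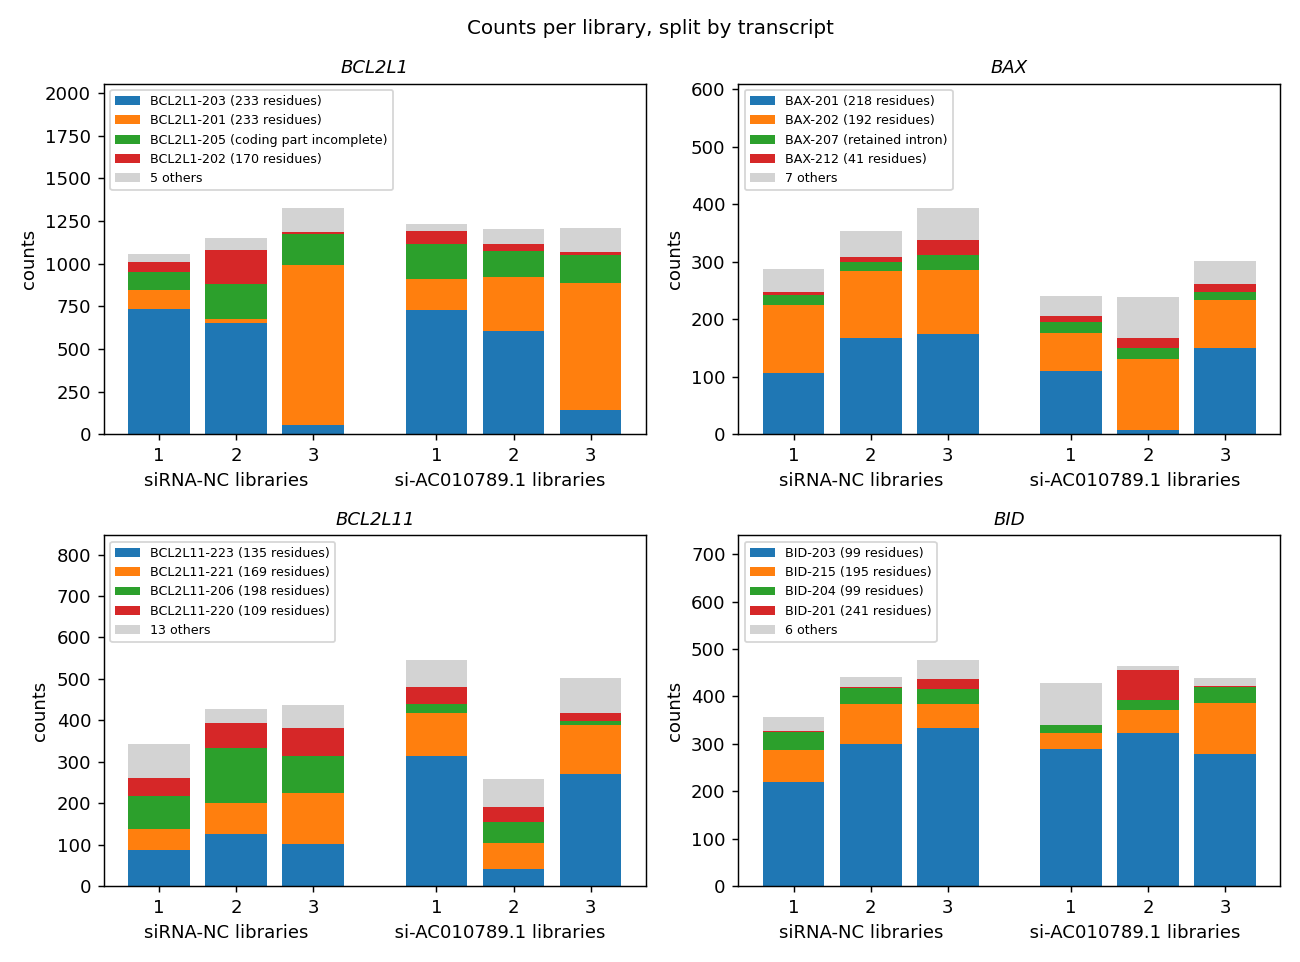
Counts in each library (vertical axes, linear, from 0) of BCL2L1, BAX, BCL2L11 and BID, stacked by transcript for the 4 transcripts with the most counts and the sum of the others in grey; bars 1 to 3 on the left are siRNA-NC libraries and on the right si-AC010789.1 libraries. BCL2L1-203 and BCL2L1-201 trade places in replicate 3 of both groups while the bar height changes little, and BCL2L11-206 is shorter in all 3 si-AC010789.1 libraries.

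Further apoptosis genes, of the mitochondrial pathway and of the death receptor route, were read from 8 lists of 61 genes, of which 58 were tested. With edgeR 0 of 58 passed after adjustment and 7 had an unadjusted p-value under 0.05 (12.1%, against the 17.2% of all genes given above). DESeq2 gave 0 and 6, and its share of all genes at the unadjusted threshold is not reported here. The log2 fold change was above 0 for 27 and below 0 for 31, with a median of -0.005 against -0.001 over all genes tested. The median was -0.008 over 12 other BCL2 family genes, -0.012 over 6 genes of the apoptosome and released factors, 0.014 over 7 caspases and 0.029 over 7 inhibitors of apoptosis. It was 0.102 over 4 outer membrane channels, 0.063 over 8 death receptors and adaptors, -0.049 over 7 genes for the turnover of MCL1 and BH3-only proteins, and -0.151 over 7 transcription factors of BH3-only genes. The last list held 3 of the 7 genes with an unadjusted p-value under 0.05.

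The list genes with the lowest unadjusted edgeR p-values all missed the adjusted threshold, and 5 of them are described. E2F1, a cell cycle factor that also drives BH3-only genes, had 87.8, 77.1 and 84.0 CPM in siRNA-NC against 65.4, 67.0 and 71.7 CPM in si-AC010789.1 (log2 fold change -0.29, 95% interval -0.46 to -0.11, edgeR adjusted p = 0.13). Every si-AC010789.1 library was below every siRNA-NC library. The groups did not overlap in APAF1, HUWE1 and TNFRSF10A either. Over the lists this held for 12 of 58 genes tested, against 25.1% of all genes.

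APAF1, the scaffold of the apoptosome, had means of 43.2 ± 7.46 and 58.3 ± 5.43 CPM (SD, n = 3 each) and a log2 fold change of 0.44 (95% interval 0.11 to 0.76, edgeR adjusted p = 0.191). CASP9, the caspase that APAF1 switches on, had means of 18.8 ± 7.29 and 32.7 ± 7.0 CPM and a log2 fold change of 0.80 (95% interval 0.1 to 1.5, edgeR adjusted p = 0.242). The groups of CASP9 overlapped, and summed over its protein-coding transcripts alone the log2 fold change was -0.007. HUWE1, a ubiquitin ligase for MCL1, had 772 ± 21.0 and 703 ± 25.0 CPM (log2 fold change -0.14, edgeR adjusted p = 0.209), and the death receptor TNFRSF10A had 38.1 ± 0.962 and 46.2 ± 5.05 CPM (log2 fold change 0.28, edgeR adjusted p = 0.225).

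**Figure D4:**
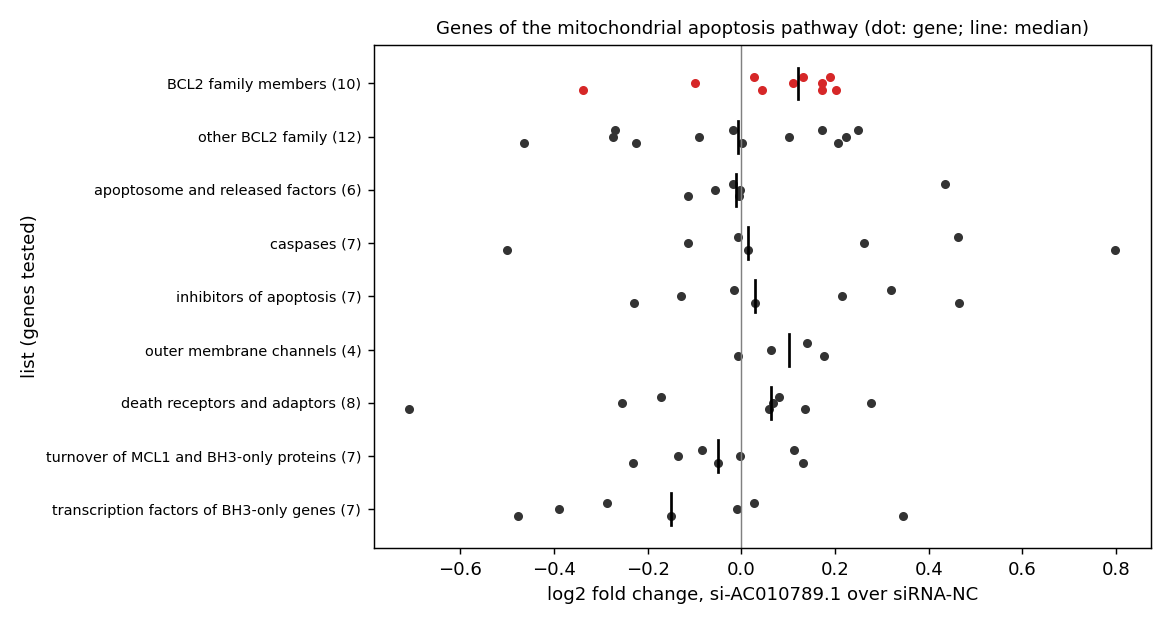
Log2 fold change of the 10 members (red) and of the 58 tested genes of the 8 pathway lists (black), si-AC010789.1 over siRNA-NC; each dot is a gene and each short line the median of its list, with the number of genes tested in brackets. The list medians lie between -0.151 and 0.102, and that of the members is 0.12.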

How the data were processed

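HCT116 RNA-seq libraries (3 siRNA-NC, 3 si-AC010789.1) were grouped by their labels. The table that the authors deposited holds raw counts, as whole numbers, for Ensembl transcripts in each library. Per the labels' processing notes, CASAVA 1.8, TopHat2 2.0.6 and the builds GRCh38 and mm10 are named, with no roles; the paper names Cuffdiff. The counting program, its annotation, its use of strand and its division of reads shared by transcripts are not given in the sources used here. Gene sums depend less on that division than the values of single transcripts do, and reads of overlapping antisense genes cannot be told apart without strand: BCL2, BCL2L1, BAK1, BBC3 and BCL2L11 have such a neighbour in the annotation, and MCL1, BCL2, BID and BBC3 have one on the same strand.

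Transcripts were matched to GENCODE release 29 by identifier (98782 of 98886 matched, holding 99.897% to 99.931% of the counts of a library) and summed per gene. Gene sums, coding products and single transcripts were tested with edgeR 4.0.16 in R 4.3.3 by its quasi-likelihood test. TMM factors for genes lay between 0.9935 and 1.0073, filterByExpr asked for at least 10 counts and 15 in total, and p-values were adjusted by Benjamini-Hochberg over all features tested, with 0.05 as the threshold. CPM used TMM-scaled library sizes, and groups were called apart on CPM. The 95% intervals were approximated from the quasi-likelihood F statistic. Per-length levels divided each transcript's counts by its annotated length. Exact permutation tests used log2(CPM + 0.5). The fitted biological coefficient of variation was 0.17 for genes and 0.698 for transcripts. The 95% intervals include the spread between libraries, and the floor of 3 counts covers counting error only. No 2 libraries held identical values.

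The members and lists were chosen with earlier results of these data known. Named are all 10 members, for each the 2 transcripts with the largest mean count, member transcripts with an unadjusted p under 0.05 and separate groups, and the 6 list genes of lowest p, of which 1 is not reported here; BCL2L1-202, MCL1-201, BBC3-203 and BBC3-204 were added after their values were seen. Coding products were also added after seeing the data. BCL2A1 and BCL2L14 were not analysed here. The alternatives were DESeq2 1.42.0, median-of-ratios factors, the fit without a filter or with a minimum mean of 1 CPM, sums of protein-coding transcripts, the replicate number as a block, another length and the omission of each library in turn. The main edgeR fit for genes, coding products and transcripts was first tried on simulated data, and the alternatives were not. Python 3.11.15, pandas 2.3.3, numpy 2.4.6 and matplotlib 3.10.9 were used.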

Additional observations from a re-analysis of the deposited data

How the results depend on the processing

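The counts of members, member transcripts, coding products and list genes called were 0 in edgeR and stayed at 0 under every alternative that was run, DESeq2, both filters, median-of-ratios factors, protein-coding sums (genes only), the block and each left-out library. For transcripts and coding products, with biological coefficients of variation of 0.698 and 0.651, few features of any gene were called, so these counts of 0 say little about stability. The counts of 0 for members and list genes say little about it either. Only 0.982% of all genes were called in the main fit, and fewer with a library left out or with the block. The number of all genes called was 135, and it was 559 with DESeq2, 69 with no filter and 56 with protein-coding sums. With 1 library left out it ranged from 12 (without si-AC010789.1 replicate 3) to 37 (without si-AC010789.1 replicate 1), where fewer libraries enter the fit. With the replicate number as a block 0 genes were called and the log2 fold change of BCL2 was -0.021. The correlation of deviations between libraries of the same number was 0.098, 0.005 and 0.008. Between libraries of unlike number it ranged from -0.081 to 0.079. Whether libraries of the same number were handled together was not tested. With 1 library left out the log2 fold change ranged from -0.326 to 0.179 for BCL2, from -0.031 to 0.171 for MCL1, from -0.077 to 0.882 for BBC3 and from -0.055 to 0.476 for BCL2L11, and it kept its sign for the other members. Of the members' alternative values 110 kept their sign and 9 reversed, and none passed the threshold, with no adjusted p-value from DESeq2 for BCL2, BBC3 and BIK. Among the other named features, alternative values were compared only for the list genes of lowest p and for BCL2L11-206, BCL2L11-223 and BCL2L11-221. Of these values 104 kept their sign, the exception being CASP9 at -0.007 with protein-coding sums. BBC3 had no value there, since its coding transcripts were under the filter. The causes were not tested. The depth limits BIK, BCL2 and BBC3 most, each under 100 counts in every library.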

Other observations

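Several member transcripts below the filter on low counts, picked after their values were seen, had more counts in 1 library than in the other libraries together. BCL2L11-217, of 140 residues, had 46 counts in si-AC010789.1 replicate 3 and 0 in the other libraries. BCL2L11-219, of 135 residues, had 47 counts in siRNA-NC replicate 1 and 1 to 3 in the others. BID-201, the 241-residue form, had 63 counts in si-AC010789.1 replicate 2, 20 in siRNA-NC replicate 3 and at most 3 in the others. BID-205, whose product is the same 195-residue BID as that of BID-215, had 38 counts in si-AC010789.1 replicate 1, where BID-215 had its lowest count of 32. Summed, the 195-residue product had 70, 89 and 52 counts in siRNA-NC against 70, 53 and 110 in si-AC010789.1. BAX-213 had 25 counts in si-AC010789.1 replicate 2, the library in which BAX-201 had 7, and 2 to 5 in the others. These values were not tested, and the sources used here do not say how reads shared by such transcripts were divided.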
